A study of Mus musculus with 6 samples.

Results

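Basement membrane genes were followed in fibroblasts taken from the enthesis, the site where tendon joins bone, of SKG mice. They comprised 31 genes listed by symbol, all of them among the 17419 genes of the deposited table: 6 collagen IV chains, 10 laminin chains, 2 nidogens, 2 heparan sulfate proteoglycans, 2 netrins and 9 other proteins of the same sheets or their receptors. SKG mice carry a mutation of the T cell kinase Zap70 and are prone to autoimmune arthritis, so both groups share that strain. The labels put 3 samples in a diseased group, whose titles carry NTS, and 3 in an un-diseased group, whose titles carry UN. The labels explain neither abbreviation, and the age and sex of the mice and what brought on the disease are not given in the sources used here. Whether each sample is its own animal or culture is not stated either, and every p-value therefore reflects the spread among these 6 samples, part of which may be technical.

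Basement membranes are thin sheets of matrix under epithelia and around vessels, muscle fibres, fat cells and nerves. Laminins, each a trimer of an alpha, a beta and a gamma chain, assemble on cell surfaces through integrins and dystroglycan, and collagen IV forms a second network that nidogens and perlecan tie to the laminin one. Fibroblasts make many of these chains although they do not sit on a continuous basement membrane themselves.

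In diseased samples 4 of the 28 tested basement membrane genes were lower and 0 were higher by edgeR's quasi-likelihood test. The 4 were Lama2 and Lama3, which encode the laminin alpha2 and alpha3 chains, Lamb2, which encodes the laminin beta2 chain, and Ntn1, which encodes netrin-1. They fell 1.63-fold to 2.18-fold. The main collagen IV genes Col4a1 and Col4a2, perlecan (Hspg2) and laminin alpha4 (Lama4) did not pass, and their values overlapped between the groups. The share of tested members called lower was 14.3%, against 2.13% of all 13264 tested genes; 1.61% of all tested genes were called higher. Of all calls 43% were higher with TMM scaling and 59.1% with upper-quartile scaling. The median log2 fold change, diseased minus un-diseased, was -0.39 over the 28 members and 0.02 over all tested genes. Beside the 0 members called higher, 2 members had a positive change with an unadjusted p under 0.05 by edgeR, and 12 had a negative one, where 13.4% and 14.4% of all tested genes did. DESeq2 called 1 member higher, the peroxidasin gene Pxdn.

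Sample numbers are shared between the groups, and same-numbered samples deviated together from their group means. The labels state no pairing, so the pairs used here were inferred from these data. With the replicate number as a block, 9 members were lower and 2 higher, or 32.1% and 7.14% of those tested. Over all tested genes the blocked shares were 13.3% lower and 10.5% higher. The 5 further falls were those of Col4a4, Col4a5, Lamc3, Nid1 and Egfl6, and the 2 rises those of Agrn and Pxdn. Of these 7, only Col4a5 was also called in each of the 3 blocked fits that left out a pair. Agrn (adjusted p 0.0638 to 0.13), Nid1 (0.0989 to 0.151) and Col4a4 (0.0511 to 0.0946) were called in none of these edgeR fits. Groups did not overlap for 7 members that were lower in every diseased sample (25% of tested members, against 15.4% of all tested genes) and 2 that were higher (7.14%, against 16.5%).

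None of the 4 calls made without the block was kept in all 6 fits that left out a single sample. The log2 fold changes of these 4 genes stayed negative in each such fit. Only Lama3 was called without diseased replicate 1, only Lama2 without diseased replicate 2, and Lama2, Lamb2 and Ntn1 without un-diseased replicate 1. Without diseased replicate 3, un-diseased replicate 2 or un-diseased replicate 3, 0 members were called, and of all tested genes 2, 3 and 14 were called higher and 3, 7 and 23 lower. With the block, all 4 were called in the fit of all samples and in each of the 3 fits that left out a pair.

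Total counts lay between 16720605 and 18290870 per sample. Levels are given as CPM, counts scaled by the TMM-adjusted library size; 3 counts, the upper limit where none was seen, equalled 0.147 to 0.188 CPM, and this covers counting error only. Fibroblast markers were abundant, with Col1a1 at 10800 CPM or more in every sample and Pdgfra at 911 or more. Some listed markers of cells that sit on basement membranes were low, the endothelial cadherin Cdh5 reaching 4.42 CPM, the epithelial Epcam 0.564 and the adipocyte gene Adipoq 1.51. Other listed markers were higher, the endothelial Tek reaching 73.3 CPM and the pericyte marker Cspg4 146 CPM. The 18 macrophage and monocyte markers summed to 222 to 592 CPM in diseased and 49.7 to 295 in un-diseased samples; of the 17 tested, 0 were called by edgeR without the block (6 were higher at an unadjusted p under 0.05) and 16 rose with it. Their part in the results below was not tested, and in bulk samples fewer cells of a type and less RNA per cell cannot be told apart.

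The members spanned a wide range of levels. Of the 31, 13 had a mean of at least 100 CPM over all samples, 5 lay between 10 and 100, and 13 lay under 10. Per kilobase of the longest annotated transcript, which allows genes of different length to be compared, Col4a1 came first at 246 CPM per kilobase and Col4a2 next at 199. Nid1 (171), Hspg2 (146), Lamb2 (132), Lamc1 (120), Lamb1 (113) and Lama4 (98.5 CPM per kilobase) followed. These 8 genes encode the 2 chains of the common collagen IV, nidogen-1, perlecan, and alpha, beta and gamma chains of laminin.

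**Figure D1:**
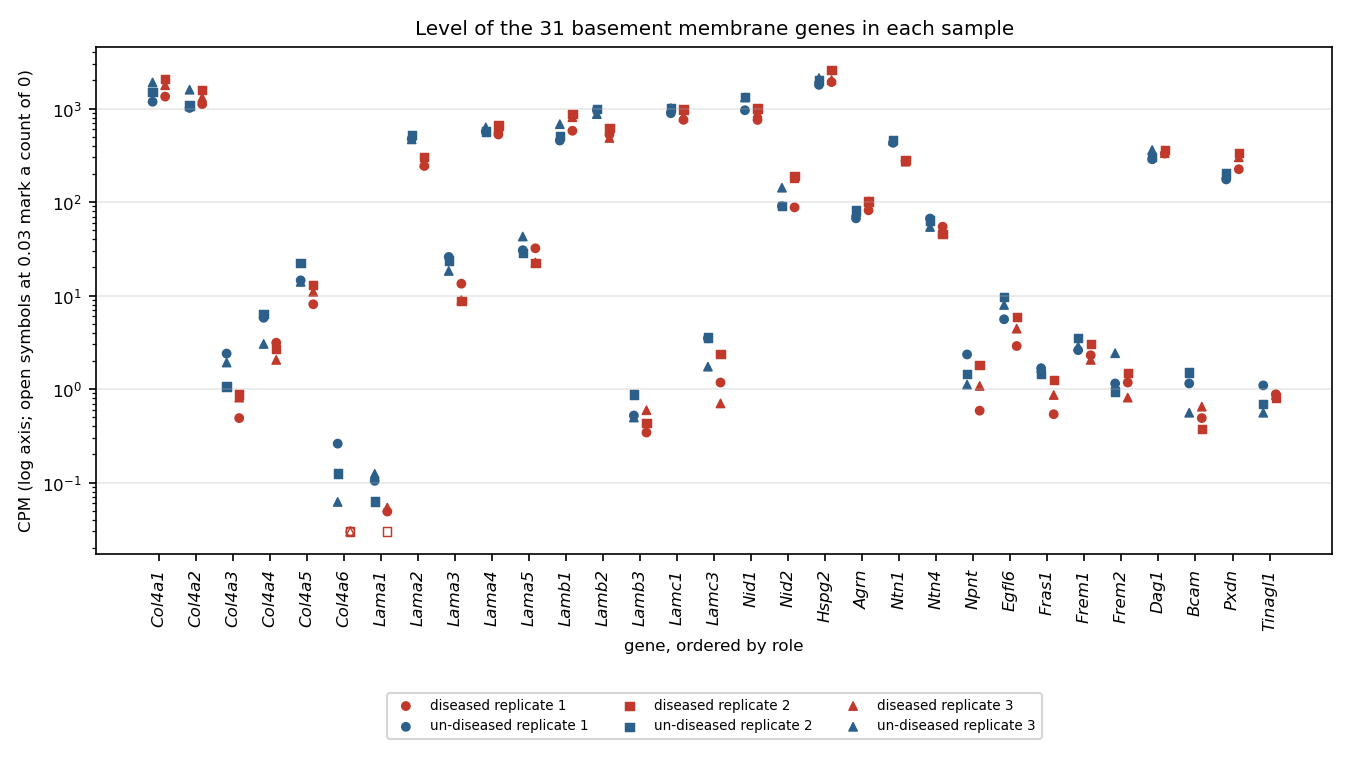
CPM of each of the 31 basement membrane genes (horizontal axis, ordered by role) in each of the 6 samples on a log axis, diseased in red and un-diseased in blue, with symbols for the replicate number and open symbols where the count was 0. The 3 diseased points of Lama2, Lama3, Lamb2 and Ntn1 lie below the 3 un-diseased ones, whereas those of Col4a1, Col4a2, Hspg2 and Lama4 overlap.

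Col4a6, Lama1 and Lamb3 had too few counts to be tested. Col4a6 had 0 counts in all 3 diseased samples and 5, 2 and 1 in un-diseased replicates 1, 2 and 3, which is at most 0.261 CPM, and Lama1 had 7 counts over all 6 samples. Lamb3, the beta chain of the epithelial laminin that contains alpha3, had 57 counts over all samples and 0.342 to 0.877 CPM. Of the 28 tested members, 25 reached the count limit of the filter in all 6 samples and 0 passed it through a single group.

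The laminin alpha chains did not move together. Lama2, whose product lines muscle fibres and Schwann cells and is bound by dystroglycan, had 244, 302 and 260 CPM in diseased and 474, 526 and 469 CPM in un-diseased replicates 1, 2 and 3. Every diseased sample was below every un-diseased one. Its log2 fold change was -0.87 (SE 0.13, adjusted p = 0.0254 by edgeR), a 1.82-fold fall, and the within-pair differences were -0.96, -0.80 and -0.85. Lama2 (gene 16773) lies on GRCm38 chromosome 10 from 26981285 to 27617191 on the minus strand.

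Lama3, best known from the laminin that anchors epidermis, was far less abundant, at 13.4, 8.72 and 8.96 CPM in diseased and 25.9, 23.7 and 18.3 CPM in un-diseased replicates 1, 2 and 3. It was lower in all 3 diseased samples, with a log2 fold change of -1.13 (SE 0.21, adjusted p = 0.0368 by edgeR). The 10 listed epithelial markers summed to 2.35 to 4.73 CPM in diseased and 5.06 to 7.58 in un-diseased samples. Among them Krt8, Krt18 and Cldn4 were at 0 in at least 3 samples. Of the 3 that could be tested, 1 had a positive change, and 1, the desmosomal gene Perp, fell (log2 fold change -1.58, adjusted p = 0.0368 by edgeR). Lama3 itself was at 22.7 ± 3.89 CPM in un-diseased samples (SD, n = 3), or 2.15 CPM per kilobase. The part of epithelial RNA in the fall of Lama3 was not tested.

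Lama4, a chain of vessels, fat and mesenchymal cells and the most abundant alpha chain here, had 529, 662 and 616 CPM in diseased and 566, 571 and 630 CPM in un-diseased replicates 1, 2 and 3. The groups overlapped and the log2 fold change was 0.03 with a 95% interval of -0.29 to 0.35. Lama5, the chain of mature epithelia and vessels, had 22.4 to 32 CPM in diseased and 28.4 to 42.8 in un-diseased samples, with an interval of -0.88 to 0.07.

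As shares of all alpha chain counts per kilobase, Lama2 made up 21.7%, 21.9% and 20.5% in the diseased samples, against 33.3%, 35.6% and 30.8% in un-diseased replicates 1, 2 and 3. Lama4 made up 76.1% ± 1.24 in diseased and 63.4% ± 2.20 in the un-diseased group (SD, n = 3 each). The ratio of Lama4 to Lama2 per kilobase was 3.57 ± 0.17 in diseased and 1.92 ± 0.206 in the un-diseased group (SD, n = 3 each), so the laminin alpha mixture held relatively less Lama2 in each diseased sample. These shares and ratios are descriptions without a test.

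Of the beta chains, Lamb2 fell and Lamb1 did not pass. Lamb2 (gene 16779, chromosome 9, 108479847 to 108490530, plus strand), the beta chain of synapses, kidney filters and vessel muscle, had 528, 618 and 485 CPM in diseased replicates 1, 2 and 3. Its un-diseased samples had 970, 984 and 873 CPM, all above every diseased one. The log2 fold change was -0.79 (SE 0.14, adjusted p = 0.0351 by edgeR), with -0.88, -0.67 and -0.85 within pairs. Lamb1 (gene 16777, chromosome 12, 31265146 to 31329644, plus strand), the widely expressed beta chain present from early development, had 579, 882 and 808 CPM in diseased and 456, 508 and 682 CPM in un-diseased replicates 1, 2 and 3. The groups overlapped through diseased replicate 1 and un-diseased replicate 3. Its log2 fold change of 0.46 (95% interval -0.04 to 0.97) did not pass (edgeR adjusted p = 0.21, and 0.0504 with the replicate block), although all 3 pairs had a positive difference (0.35, 0.80 and 0.25).

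Lamb1 made up 51.6%, 58.1% and 61.8% of beta chain counts per kilobase in diseased replicates 1, 2 and 3, against 31.4%, 33.4% and 43.2% in un-diseased ones. The ratio of Lamb1 to Lamb2 per kilobase was 1.07, 1.39 and 1.62 in the diseased samples, in each of which Lamb1 exceeded Lamb2. In the un-diseased samples it was 0.457, 0.502 and 0.76, so Lamb2 exceeded Lamb1 in each. The difference in the Lamb1 share was 21.2 percentage points and was not tested.

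**Figure D2:**
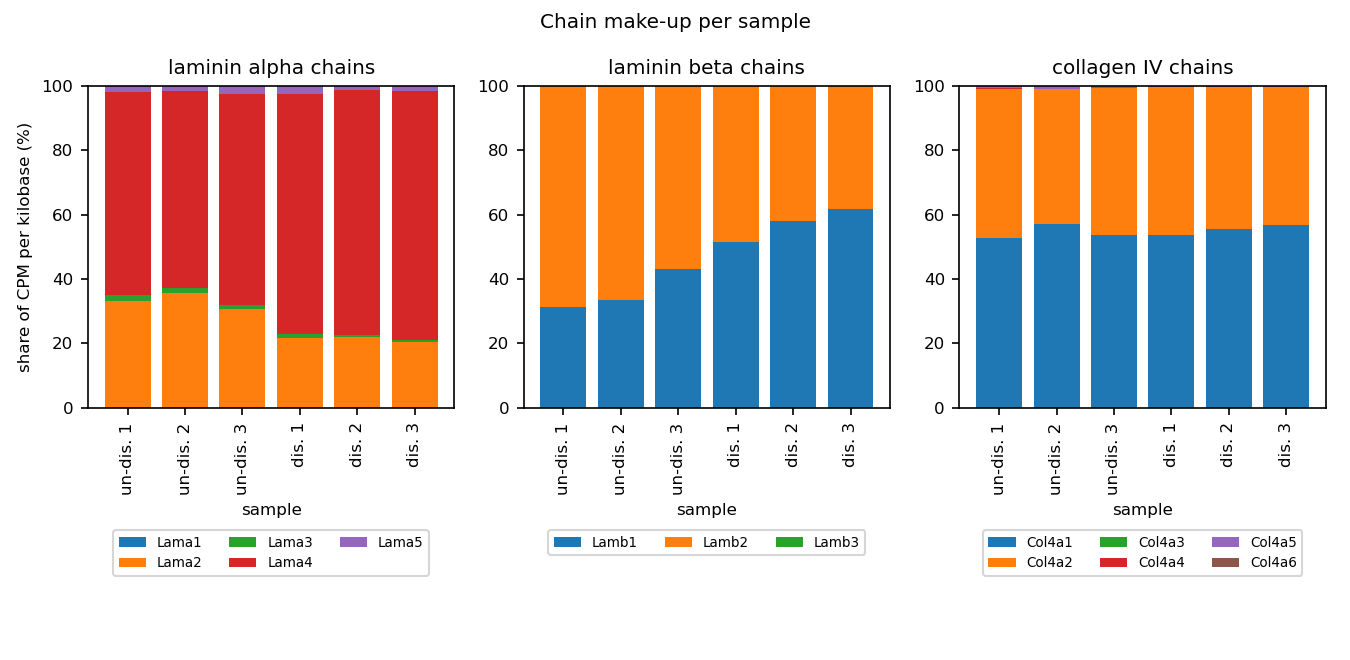
Share of CPM per kilobase of transcript (vertical axis, %) taken by each chain gene in each sample for laminin alpha, laminin beta and collagen IV chains. The Lama2 and Lamb2 segments are smaller in the 3 diseased (dis.) than in the 3 un-diseased (un-dis.) samples. Across the samples Col4a1 takes 52.7% to 57.1% and Col4a2 41.9% to 46.4% of collagen IV, with overlap between the groups.

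To show the sequence beside the 2 main beta chain genes, stretches upstream of the first annotated bases are printed. Of these genes Lamb2 fell and Lamb1 did not pass. The stretches are read 5′ to 3′ on the plus strand of GRCm38.p6 from RefSeq, with CpG dinucleotides in capitals. Each comes from the 250 bases before the RefSeq start site and ends where the gene's RefSeq span or any GENCODE exon begins.
Lamb1, chr12:31265043-31265145: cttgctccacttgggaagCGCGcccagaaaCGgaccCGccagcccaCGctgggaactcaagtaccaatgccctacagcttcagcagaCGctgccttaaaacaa
Lamb2, chr9:108479612-108479735: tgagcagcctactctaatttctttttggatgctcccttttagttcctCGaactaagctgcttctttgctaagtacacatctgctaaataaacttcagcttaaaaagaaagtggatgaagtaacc
The printed stretch held 6 CpGs for Lamb1, in 103 bases, and 1 for Lamb2, in 124 bases. The rest of each 250-base window held 147 bases for Lamb1 and 126 for Lamb2. For Lamb1 it lies inside the annotated RefSeq span of the gene. For Lamb2 it begins at a GENCODE exon whose gene and strand were not checked. The whole window held 14 CpGs for Lamb1, 8 of them in that rest, and 3 for Lamb2, 2 of them in the rest. The median over 32851 such windows of the genome was 6. The G and C content of the whole window was 62% for Lamb1, 43.6% for Lamb2 and 52.4% in the median window. Both windows were searched on both strands for 5 short motifs, none of which contains another. The GC box, GGGCGG, matched at 2 places in the Lamb1 window, both inside the annotated span, and 32.7% of all windows hold at least 1 such match. The TATA box, written TATAAA, occurs in 12.4% of all windows. The motif of TEAD transcription factors, GGAATG, is found in 12.6%. The motif of SOX transcription factors, AACAAT, is found in 9.42%, and that of AP-1, TGANTCA with N for any base, in 6.75%. The last 4 motifs had 0 matches in the Lamb1 window, the Lamb2 window had 0 matches to any of the 5, and so neither printed stretch held a match. A match or its absence describes these letters only.

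Of the gamma chains, Lamc1, the partner in most laminins, had 758, 981 and 811 CPM in diseased and 893, 1015 and 1014 CPM in un-diseased replicates 1, 2 and 3. Its log2 fold change was -0.20 with an interval of -0.55 to 0.16, and it took at least 99.5% of gamma chain counts per kilobase in every sample. Lamc3, a minor gamma chain, was near the bottom of the range at 0.701 to 2.37 CPM in diseased and 1.74 to 3.57 in un-diseased samples. It did not pass without the block (log2 fold change -1.07, adjusted p = 0.197 by edgeR) and fell with it (-1.12, adjusted p = 0.0274).

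Collagen IV was dominated by Col4a1 and Col4a2, whose products form the trimer found in nearly all basement membranes. Col4a1 had 1345, 2061 and 1779 CPM in diseased and 1184, 1510 and 1904 CPM in un-diseased replicates 1, 2 and 3. Col4a2 had 1116, 1581 and 1312 CPM in the diseased samples, against 1017, 1081 and 1592 CPM. For both genes the groups overlapped, the lowest sample was un-diseased replicate 1, and in pair 3 the diseased sample was the lower one. The 95% intervals of the log2 fold change were -0.37 to 0.72 for Col4a1 and -0.40 to 0.64 for Col4a2.

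The genes Col4a1 and Col4a2 lie head to head on chromosome 8, on opposite strands, with start sites of their RefSeq spans 84 bases apart, so that the spans overlap by a short stretch in which reads without strand cannot be assigned. The ratio of Col4a1 to Col4a2 per kilobase was 1.26 ± 0.0749 in diseased and 1.22 ± 0.123 in the un-diseased group (SD, n = 3 each). It ranged from 1.14 to 1.36 over the 6 samples and overlapped between the groups.

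The other collagen IV chains, which replace these in kidney, lung, muscle and skin basement membranes, were scarce. Col4a5 had 8.07, 12.9 and 10.95 CPM in diseased and 14.5, 22.4 and 14 CPM in un-diseased replicates 1, 2 and 3, all diseased samples lying below the others. It did not pass without the block (log2 fold change -0.67, adjusted p = 0.132 by edgeR) and fell with it (adjusted p = 0.0133). Col4a4 had 3.13, 2.68 and 2.05 CPM in diseased and 5.79, 6.32 and 3.04 CPM in un-diseased replicates 1, 2 and 3, with a slight overlap; it too fell with the block only (-0.91, adjusted p = 0.0198). Col4a3, its neighbour on chromosome 1 with a start site 113 bases away on the opposite strand, had 0.489 to 0.872 CPM in diseased and 1.06 to 2.40 in un-diseased samples and passed in neither fit (adjusted p = 0.103 and, with the block, 0.0505). Col4a3, Col4a4 and Col4a5 thus had lower means in diseased samples, while Col4a1 and Col4a2 did not. None of these genes passed without the block, and Col4a6 had too few counts to be tested. The contrast between genes was not itself tested.

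Nidogen-1 (Nid1), the linker between the laminin and collagen IV networks, had 757, 1004 and 894 CPM in diseased and 961, 1325 and 1315 CPM in un-diseased replicates 1, 2 and 3. Diseased replicate 2 lay above un-diseased replicate 1, so the groups overlapped. The log2 fold change was -0.44 (adjusted p = 0.174 by edgeR), and it passed with the block (adjusted p = 0.0431), all pairs being negative (-0.34, -0.40 and -0.56). Nid2, the second nidogen, had 87.85, 189.7 and 179.9 CPM in diseased and 90.5, 90.4 and 142.5 CPM in un-diseased replicates 1, 2 and 3. Its log2 fold change was 0.50 with an interval of -0.22 to 1.22 and did not pass in either fit. Nid2 made up 17.3% ± 4.03 of nidogen counts per kilobase in diseased and 10.1% ± 2.07 in the un-diseased group (SD, n = 3 each).

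Perlecan (Hspg2), the large heparan sulfate proteoglycan of basement membranes and pericellular matrix, had 1922, 2585 and 2021 CPM in diseased and 1795, 2005 and 2122 CPM in un-diseased replicates 1, 2 and 3. The groups overlapped, with an interval of -0.27 to 0.55 for the log2 fold change. Agrn, which encodes the proteoglycan agrin that organizes neuromuscular synapses, had 81.7, 102 and 102 CPM in diseased and 67, 81.5 and 78.5 CPM in un-diseased replicates 1, 2 and 3. The lowest diseased sample was just above the highest un-diseased one. Its log2 fold change of 0.33 (SE 0.13) did not pass without the block (adjusted p = 0.152 by edgeR) and did with it (adjusted p = 0.0304), the pairs giving 0.29, 0.32 and 0.38.

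Ntn1, which encodes the laminin-related guidance protein netrin-1, showed the least spread of the 4 genes called. It had 273, 280.5 and 270.6 CPM in diseased and 431, 463 and 453 CPM in un-diseased replicates 1, 2 and 3. The 3 diseased samples lay within 10 CPM of each other and far below the un-diseased ones. The log2 fold change was -0.71 (SE 0.11, adjusted p = 0.0256 by edgeR), a 1.63-fold fall, and the pairs gave -0.66, -0.72 and -0.74. Ntn1 (gene 18208) lies on chromosome 11 from 68209364 to 68386826 on the minus strand. Ntn4, a netrin that binds the laminin gamma1 chain and hinders laminin assembly, had 45.9 to 54.6 CPM in diseased and 54.2 to 66.7 in un-diseased samples; at a log2 fold change of -0.31 it did not pass (adjusted p = 0.148 by edgeR, 0.0569 with the block).

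**Figure D3:**
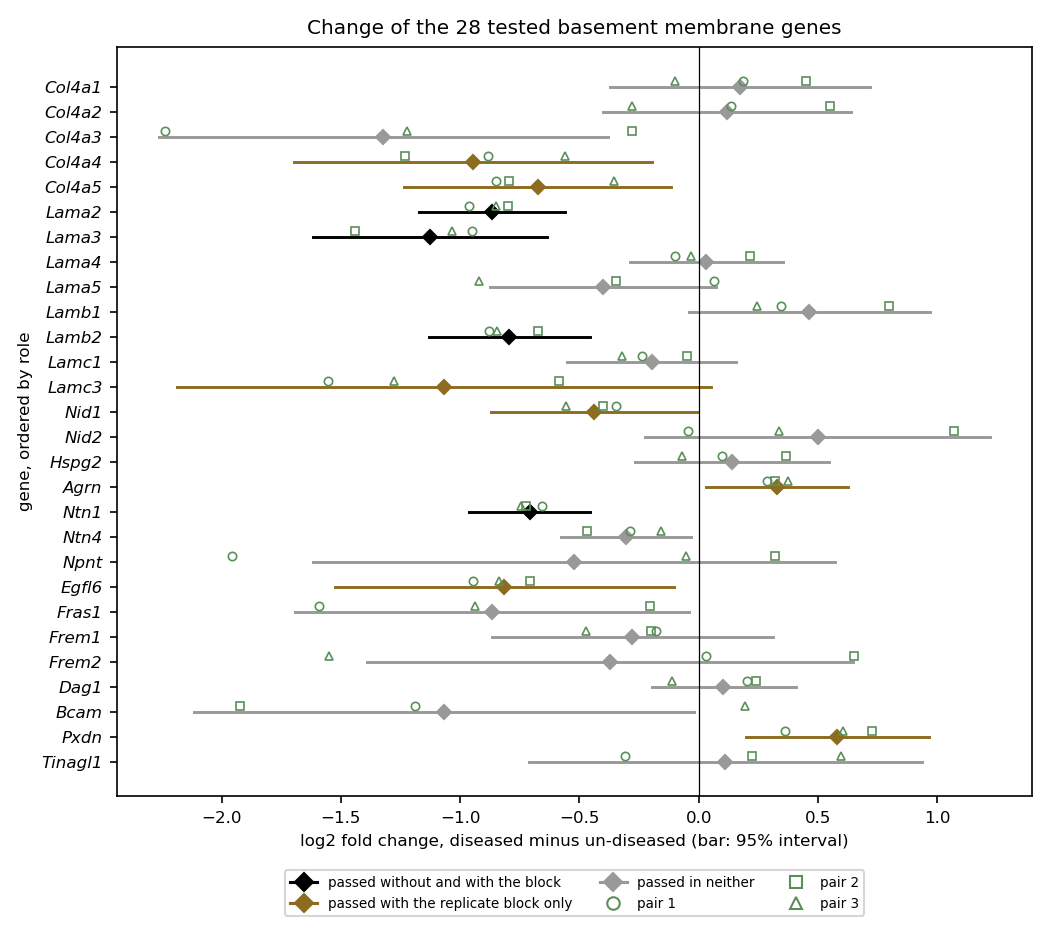
Log2 fold change, diseased minus un-diseased (horizontal axis), of the 28 tested genes with its 95% interval, and the difference within each of the 3 pairs as open symbols. Lama2, Lama3, Lamb2 and Ntn1 (black) passed without and with the block, and the 7 genes in brown with the block only.

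Pxdn, which encodes peroxidasin, the enzyme that crosslinks collagen IV, had 225, 333 and 302 CPM in diseased and 175, 202 and 198 CPM in un-diseased replicates 1, 2 and 3. All diseased samples were higher. Its log2 fold change of 0.58 (SE 0.16) did not pass without the block (edgeR adjusted p = 0.0887) and did with it (0.0112). In the authors' deposited table its log2 ratio of un-diseased over diseased was -0.57 with a q-value of 0.0264. That deposited table gave q-values of 4.58e-08 to Lama2, 0.000212 to Lama3, 2.3e-06 to Lamb2 and 1.75e-10 to Ntn1, each with a positive ratio of un-diseased over diseased.

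Among proteins that sit at the edge of the sheet, Egfl6, a secreted EGF-repeat protein that binds integrins, had 2.89, 5.85 and 4.42 CPM in diseased and 5.58, 9.58 and 7.93 CPM in un-diseased replicates 1, 2 and 3. It was lower within each pair (-0.94, -0.71 and -0.84), while the groups overlapped. It did not pass without the block (-0.81, adjusted p = 0.143 by edgeR) and fell with it (adjusted p = 0.0101). Nephronectin (Npnt), a ligand of integrin alpha8, had 0.587 to 2.35 CPM over all samples and a log2 fold change of -0.52 that passed in neither fit.

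Fras1, Frem1 and Frem2, whose products form the Fraser complex that holds embryonic epidermis to dermis, had 0.538 to 3.51 CPM over all samples and negative log2 fold changes (-0.87, -0.28 and -0.37), and none of the 3 passed in either fit. Dystroglycan (Dag1), the laminin receptor that muscular dystrophies affect through its sugar chains, had 330, 359 and 334 CPM in diseased and 287, 304 and 361 CPM in un-diseased replicates 1, 2 and 3. The groups overlapped, with an interval of -0.20 to 0.41. The laminin alpha5 receptor Bcam reached at most 1.503 CPM, and Tinagl1, a secreted matricellular protein of basement membranes, at most 1.09 CPM; neither passed in either fit.

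Genes that act with these proteins were read from 6 further lists, chosen by function. Over all tested genes 1.61% rose and 2.13% fell without the block, and 10.5% rose and 13.3% fell with it. Of 18 tested other basement membrane genes 1 rose and 2 fell, with a median log2 fold change of 0.36 against 0.02 over all tested genes; with the block 7 rose and 5 fell. Smoc1, a secreted calcium-binding protein, rose from 14.1 ± 2.46 to 67.4 ± 10.1 CPM (SD, n = 3 each). Papln, a papilin proteoglycan, fell from 17.6 ± 6.65 to 2.95 ± 0.797 CPM, and Egflam, which encodes the dystroglycan ligand pikachurin, from 5.08 ± 1.03 to 2.36 ± 0.267 CPM.

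Among 21 tested receptors and dystrophin complex genes 0 rose and 1 fell; their median was -0.24, and with the block 2 rose and 6 fell. Itga2, the collagen-binding integrin alpha2 subunit, was the one that fell, from 17.1 ± 4.48 to 6.67 ± 0.702 CPM (log2 fold change -1.35, adjusted p = 0.0272 by edgeR; SD, n = 3 each). Itga6 and Itgb4, the subunits of the integrin that binds alpha3-containing laminin, were looked at after their values were seen. Itga6 had 29.5, 16.1 and 12.2 CPM in diseased and 53.4, 39 and 53.5 CPM in un-diseased replicates 1, 2 and 3 (adjusted p = 0.0586 by edgeR, 0.00461 with the block). Itgb4 had 1.42 to 2.30 CPM in diseased and 3.28 to 5.76 in un-diseased samples (adjusted p = 0.0588 by edgeR, 0.0103 with the block). Lama3, Itga6 and Itgb4 were thus each lower in all 3 diseased samples than in any un-diseased one, while Lamb3 was barely detected in either group.

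Of 14 collagen folding and modification genes, which serve collagen IV and other collagens alike, 4 rose and 0 fell; their median was 0.39, and with the block 7 rose and 1 fell. Serpinh1, a collagen chaperone of the endoplasmic reticulum, went from 579 ± 96.8 to 1204 ± 144 CPM. Colgalt1, a collagen galactosyltransferase, went from 114 ± 6.73 to 190.3 ± 28 CPM, and P3h1, a prolyl 3-hydroxylase, from 94.4 ± 6.02 to 161 ± 28 CPM (SD, n = 3 each). These 3 had adjusted p-values of 0.0278, 0.0347 and 0.0366 by edgeR, and the fourth, named after its value was seen, was the lysyl hydroxylase gene Plod3 (0.0402).

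In the remaining 3 lists 0 genes passed without the block by edgeR. At an unadjusted p under 0.05 the counts were 4 higher and 0 lower for dystroglycan glycosylation, 2 and 0 for the netrin and agrin receptors, and 1 and 2 for cleavage, beside the 13.4% higher and 14.4% lower over all tested genes. By edgeR with the block 3 of 12 genes of dystroglycan glycosylation rose and 0 fell (median 0.20), among them B4gat1 at a log2 fold change of 0.49 and Pomk at 0.65. Of 7 tested netrin and agrin receptors 2 rose and 0 fell with the block (median 0.23), the netrin receptors Unc5b (0.75) and Unc5c (0.88), whose un-diseased means were 12.1 and 5.66 CPM. Of 13 tested basement membrane cleavage genes 2 rose and 4 fell with the block (median 0.02), beside 10.5% and 13.3% of all tested genes. The 2 rises were Ctss and Mmp9, proteases that macrophages and neutrophils also make. Ctss, itself in the macrophage list, had 28.3 to 57 CPM in diseased and 2.79 to 23 in un-diseased samples.

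**Figure D4:**
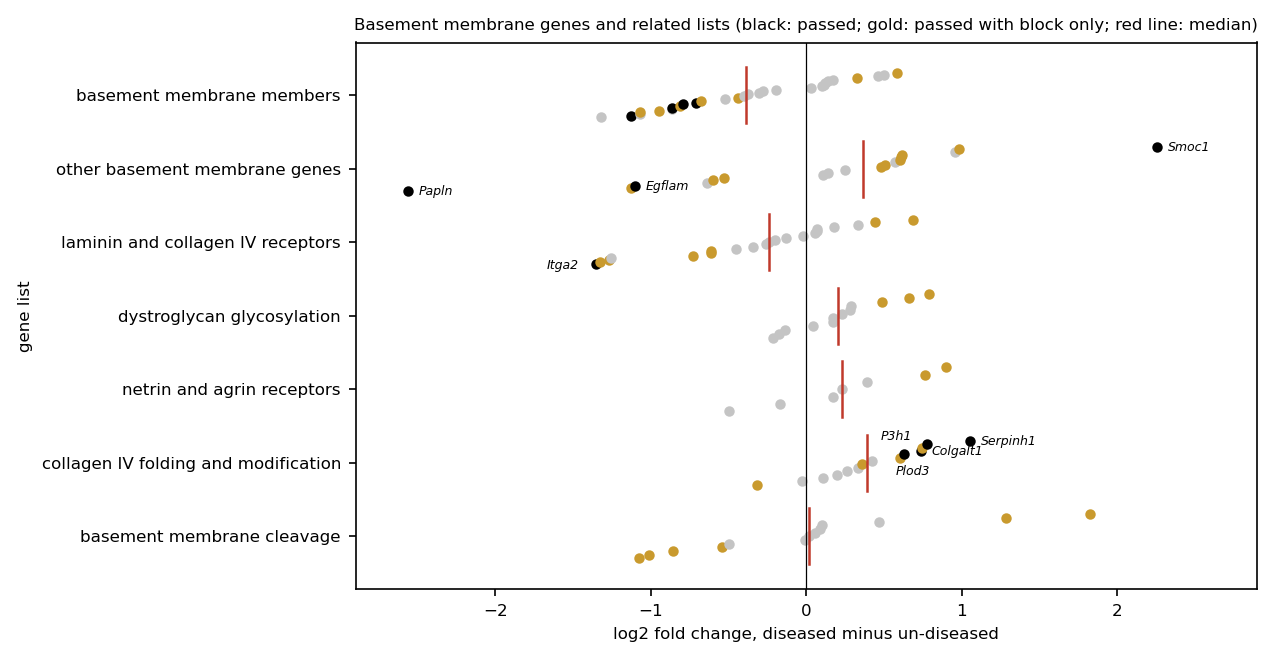
Log2 fold change, diseased minus un-diseased (horizontal axis), of every tested gene of the basement membrane members and of 6 related lists (rows), black where it passed without the block, gold where it passed with the block only, with the list median as a red line. The members have a median of -0.39 and the collagen folding list one of 0.39.

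Levels of the markers of other cells are given beside the falls of Lama2, Lama3 and Lamb2. Of all tested genes 1.61% rose and 2.13% fell without the block, and 10.5% and 13.3% did with it. Of 10 tested endothelial markers 1 rose, Erg, and 0 fell. With the block 3 rose and 1 fell, Tek. Their median log2 fold change was 0.38, with 8 of the 10 positive. At an unadjusted p under 0.05 by edgeR 5 were higher and 1 lower, beside 13.4% and 14.4% of all tested genes. The endothelial list summed to 67.7 to 93.4 CPM in diseased and 74.7 to 102 in un-diseased samples. Of 10 tested pericyte and smooth muscle markers 1 rose, Acta2, and 0 fell; with the block 1 rose and 1 fell, Abcc9, and the sums were 258 to 323 and 266 to 300 CPM. Of 7 tested Schwann and perineurial cell markers 1 rose, Ncam1, and 1 fell, Erbb3 (log2 fold change -1.27, adjusted p = 0.0267 by edgeR); with the block 1 rose and 2 fell, and the sums were 105 to 169 and 131 to 209 CPM. Sox10, which defines Schwann cells, had a count in 1 of the 6 samples only. Of 5 tested adipocyte markers 0 rose and 1 fell, Plin4; with the block 3 fell, and the sums were 10.65 to 13.6 in diseased and 17.9 to 34.6 CPM in un-diseased samples. Of 3 tested epithelial markers 2 fell with the block, Perp and Krt5. Of 2 tested skeletal muscle markers 0 passed in either fit, with sums of 3.52 to 3.99 and 3.90 to 6.46 CPM.

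Among markers of stromal cells, 2 of 10 tested tenocyte and sheath genes rose and 0 fell, with a median log2 fold change of 0.69; with the block 6 rose and 1 fell. The 2 were Thbs4 and Fmod, matrix proteins of tendon, and the 1 that fell with the block was Cd34. Of 11 fibroblast markers 0 passed without the block by edgeR (5 were higher and 2 lower at an unadjusted p under 0.05) and 3 rose with it, with a median of 0.41. Of 9 tested chondrocyte markers 0 passed without the block (1 was higher at an unadjusted p under 0.05) and 1 rose with it, with a median of 0.37. The shares of all tested genes were 1.61% higher and 2.13% lower without the block, and 10.5% and 13.3% with it. The part of any of these cell types in the falls and rises of the basement membrane genes was not tested.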

How the data were processed

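Bulk RNA was sequenced from 6 samples of entheseal fibroblasts, 3 diseased and 3 un-diseased; grouping follows the treatment label. The deposited table holds estimated counts per gene made by the authors, of which 9.61% were not whole. The submitters' processing notes name GRCm38, DESeq2 1.4.5, RSEM 1.3.1 and HISAT2 2.0.4; their roles and the strandedness are not given in the sources used here. The authors also deposited a log2 ratio, a p-value and a q-value per gene, used only for comparison.

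Counts were rounded to whole numbers. Genes were kept by filterByExpr of edgeR 4.0.16 (R 4.3.3) (least count 10), leaving 13264; TMM gave the scaling factors. Groups were compared with the quasi-likelihood test of edgeR under Benjamini-Hochberg adjustment over all 13264 genes and a threshold of 0.05. Intervals are log2 fold change ± t times its SE. CPM per kilobase uses the longest GENCODE M21 coding transcript. Within-pair values are log2 CPM differences with 0.5 added to each count. The members and lists were chosen with earlier results of these data known. Genes named in the text are all members; of each related list, up to 3 called genes with the smallest adjusted p, otherwise up to 2 called with the block. Plod3, Itga6, Itgb4 and the marker genes were named after their values were seen. Gene numbers were matched to RefSeq GRCm38.p6 for 17372 of 17419 genes. Upstream windows were found in RefSeq's table for 22 of the 31 members.

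Deviations of same-numbered samples from their group means correlated at 0.46, 0.555 and 0.28 for replicates 1, 2 and 3 over 13264 genes, so the replicate numbers in the labels were taken as pairs; the block was an alternative. Within groups, sample pairs gave a chi-square per gene of 20.6 to 49.4, well above sampling noise. Other alternatives were RLE and upper-quartile scaling, 2 other filters, DESeq2 1.42.0, limma-voom (limma 3.58.1), a threshold of 0.01, other gene lengths, and leaving out each sample or pair. The fits with and without the block were also run on simulated data, and the outcome is not reported here.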

Additional observations from a re-analysis of the deposited data

How the results depend on the processing

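With RLE or upper-quartile factors, either other filter, DESeq2, limma-voom or the replicate block, Lama2, Lama3, Lamb2 and Ntn1 stayed lower and called, and no tested member changed sign. Upper-quartile factors and DESeq2 each called 1 member higher, Pxdn, and an adjusted p of 0.01 left 0 lower. The median log2 fold change of all genes was 0.10 with upper-quartile factors and 0.02 with TMM. The replicate block gave 9 members lower and 2 higher, and 7 lower and 2 higher without replicate 1, 8 and 1 without replicate 2, and 5 lower without replicate 3. Leaving out single samples gave 0 to 3 lower and 0 higher. Of all genes, 213 were higher and 282 lower; DESeq2 gave 635 and 882, an adjusted p of 0.01 2 and 2, and single samples left out 2 to 354 and 3 to 721. In the related lists 5 genes rose and 3 fell; upper-quartile factors gave 10 rises, no filter beyond 1 count 5 falls, DESeq2 16 rises and 12 falls, an adjusted p of 0.01 1 and 0, and the replicate block 23 and 16. With the block and a pair left out, related rises were 12 to 19 and falls 8 to 15, and with single samples left out 1 to 7 and 0 to 6. The cause of these shifts was not tested.

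Changes near 0 turned sign when samples were left out. The log2 fold change ranged from -0.017 to 0.35 for Col4a2, -0.04 to 0.12 for Lama4, -0.001 to 0.22 for Hspg2, -0.62 to 0.14 for Frem2 and -0.076 to 0.44 for Tinagl1 without single samples. With the replicate block and a pair left out it ranged from -1.04 to 0.14 for Npnt, -0.073 to 0.34 for Col4a2, -0.066 to 0.08 for Lama4, -0.77 to 0.33 for Frem2 and -0.082 to 0.41 for Tinagl1. Those of Lama2 (-0.96 to -0.80), Lama3 (-1.36 to -1.02), Lamb2 (-0.90 to -0.72) and Ntn1 (-0.74 to -0.69) kept their direction without single samples, with adjusted p up to 0.132, 0.164, 0.17 and 0.133. The difference in the Lama2 share of alpha chains was -11.9 percentage points and -14.1 with mean transcript lengths; single samples left out gave -13.1 to -10.7, and 18.9 to 24.8 for the Lamb1 share of beta chains. The union of exons was added after seeing the data and moved none of the 3 shares by more than the spread between replicates. Members under about 1 CPM rest on few counts, so small changes in them were not detectable at this depth.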
